A study of Mus musculus with 12 samples.

Results

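Transcripts of 10 genes of interleukin-6 (IL-6) family signalling were followed in mouse kidney cortex after lipopolysaccharide (LPS), a bacterial outer membrane component, and after chronic ethanol. The genes were taken from a fixed list: the ligands Il6 and Lif, the receptors Il6ra, Il6st and Osmr, the transcription factor Stat3, and the STAT-induced feedback and kinase genes Socs3, Socs1, Cish and Pim1. This list was chosen with earlier results of these data known. All 10 genes were found by Ensembl identifier among the 47719 genes of the deposited table. The samples were 12 RNA libraries in 4 groups of 3, from male mice of the strain C57BL6/J with a labelled age of 8 weeks. EtOH_LPS mice had a Lieber-DeCarli liquid diet with ethanol, raised stepwise to 6%, for 6 weeks and LPS at 10 mg/kg into the peritoneum 4 hours before the kidneys were taken. PF_LPS mice were pair-fed a diet of equal calories whose ethanol was replaced by maltose-dextrin, and had the same LPS. EtOH and PF mice had these diets and saline. The labels do not say in words that the 3 libraries of a group came from different mice, so the errors and p-values measure the spread between libraries. The source is labelled whole kidney and the region cortex.

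IL-6 family cytokines act through receptor complexes that contain gp130, the product of Il6st. Ligand binding activates JAK kinases, which phosphorylate STAT3, and STAT3 then induces genes that include its own inhibitor SOCS3. In the kidney, IL-6 and its relatives are known as part of the response to endotoxin and tubular injury. In a tissue sample, a lower value can come from fewer cells of a type or from less RNA per cell. A higher value can come from more cells of a type or from more RNA per cell. In neither case can these be told apart.

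Positions are those of GENCODE M21 on GRCm38. Of the ligands, Il6 (ENSMUSG00000025746) is at chr5:30013114-30019981 on the plus strand and Lif (ENSMUSG00000034394) at chr11:4257557-4272514 on the plus strand. Of the receptors, Il6ra (ENSMUSG00000027947) is at chr3:89864059-89913196 on the minus strand, Il6st (ENSMUSG00000021756) at chr13:112464070-112510086 on the plus strand and Osmr (ENSMUSG00000022146) at chr15:6813577-6874969 on the minus strand. The transcription factor gene Stat3 (ENSMUSG00000004040) is at chr11:100885098-100939540 on the minus strand. Of the feedback genes, Socs3 (ENSMUSG00000053113) is at chr11:117966079-117970047 on the minus strand, Socs1 (ENSMUSG00000038037) at chr16:10782240-10785536 on the minus strand and Cish (ENSMUSG00000032578) at chr9:107296026-107302784 on the plus strand. The kinase gene Pim1 (ENSMUSG00000024014) is at chr17:29490753-29496112 on the plus strand.

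To show the sequence around the start of genes that responded in different ways, the promoters of Il6, Socs3 and Cish are printed from RefSeq (GRCm38.p6, the same assembly as mm10, the build of the authors' processing), each from 250 bases before to 50 bases after the annotated start, read along the gene's strand. The Il6 window lies at chr5:30012864-30013163 on the plus strand, that of Socs3 at chr11:117969317-117969616 on the minus strand and that of Cish at chr9:107296409-107296708 on the plus strand. The start is that of RefSeq. The Socs3 and Cish windows lie wholly within the GENCODE gene spans given above, so their offsets do not count from the GENCODE gene starts. Capitals mark matches, on either strand, to 4 motifs: TTCNNNGAA, the palindrome that STAT dimers bind, its stricter form TTCCNGGAA, which is contained in it, a form of the NF-kB site (GGG and TTTCC with any 2 bases between), and TGANTCA, the AP-1 site.
Il6: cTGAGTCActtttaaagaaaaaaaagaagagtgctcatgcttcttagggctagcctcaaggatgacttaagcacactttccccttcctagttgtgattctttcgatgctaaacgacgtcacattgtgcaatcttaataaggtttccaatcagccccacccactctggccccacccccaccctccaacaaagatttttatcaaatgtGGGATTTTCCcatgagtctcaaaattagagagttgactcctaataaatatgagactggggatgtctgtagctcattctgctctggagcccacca
Socs3: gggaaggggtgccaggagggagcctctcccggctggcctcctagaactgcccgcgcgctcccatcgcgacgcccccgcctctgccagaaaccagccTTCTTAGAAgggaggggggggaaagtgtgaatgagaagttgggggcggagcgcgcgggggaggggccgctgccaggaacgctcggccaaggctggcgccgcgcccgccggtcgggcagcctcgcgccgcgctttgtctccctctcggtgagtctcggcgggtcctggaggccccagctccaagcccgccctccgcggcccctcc
Cish: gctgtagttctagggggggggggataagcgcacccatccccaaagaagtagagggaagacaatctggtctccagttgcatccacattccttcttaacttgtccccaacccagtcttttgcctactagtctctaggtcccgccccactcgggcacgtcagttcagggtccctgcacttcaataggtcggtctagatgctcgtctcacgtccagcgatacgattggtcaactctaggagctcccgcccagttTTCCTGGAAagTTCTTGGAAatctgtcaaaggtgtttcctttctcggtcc

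The Il6 window held GGGATTTTCC at -44 to -35 relative to the start and the AP-1 form TGAGTCA near its upstream end. The Socs3 window held the STAT form TTCTTAGAA at -154 to -146. The Cish window held a pair of STAT forms just after the annotated start, TTCCTGGAA at 1 to 9 and TTCTTGGAA at 12 to 20, of which TTCCTGGAA has the stricter form. Of the other members, Lif and Osmr had an AP-1 match each, and Il6ra, Il6st, Stat3, Socs1 and Pim1 had no match in these windows. Of 32851 mouse promoter windows of this length, 8.3% held TTCNNNGAA, 1.15% TTCCNGGAA, 1.63% the NF-kB form and 7.81% TGANTCA. A match describes letters and shows no binding.

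The 3′ untranslated regions (GENCODE M21 transcript with the longest coding sequence) differed in AU-rich elements, short ATTTA motifs known to mark cytokine mRNAs for rapid decay. Il6 had 6 ATTTA motifs in 427 bases, or 14.1 per kb. This density was at the 99.8th percentile of 10898 protein-coding genes, whose median was 1.40 per kb. Pim1 had 5 in 1365 bases (3.66 per kb), and Cish, Socs3, Osmr and Lif had 2.76, 2.71, 2.23 and 2.2 per kb. Il6st was near the median at 1.6 per kb, and Stat3 and Il6ra were below it at 1.06 and 0.544 per kb. Socs1 had 0 in 1993 bases. The longer element TTATTTATT occurred in Pim1, Lif and Cish, and in 7.41% of the genes compared. Short stretches are shown for Il6, with 2 ATTTA motifs in capitals, and for the genes with the longer element, with 1 copy of TTATTTATT each in capitals. Further copies that overlap it in Pim1 and Cish, and an ATTTA beside it in Lif, are left in lower case.
Il6: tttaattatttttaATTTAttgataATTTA
Pim1: atgtatttatTTATTTATTtatttggttg
Cish: tatacagtatTTATTTATTtattctcctt
Lif: aaaggggcctTTATTTATTatttaaaact

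Values are FPKM, fragments per kilobase of transcript scaled to the mapped fragments of a library, which allow levels of different genes to be compared per length. The table is named as normalized, so a further scaling between libraries may enter them. In PF kidneys the order of mean levels was Il6st (105 FPKM), Stat3 (21.5), Osmr (3.26), Cish (3.10), Pim1 (1.57), Il6ra (0.582), Socs3 (0.299), Lif (0.0534), Il6 (0.0489) and Socs1 (0.0262). Ranges over libraries overlapped between the neighbours Osmr and Cish, Cish and Pim1, Lif and Il6, and Il6 and Socs1. The transducer gene Il6st stood highest in saline kidneys, and the ligands and Socs1 lowest. In PF_LPS kidneys the order was Il6st (215 FPKM), Stat3 (133), Il6 (63.0), Osmr (33.5), Socs3 (15.1), Pim1 (13.6), Cish (5.79), Socs1 (3.29), Lif (1.27) and Il6ra (0.763). There the neighbours Il6 and Osmr did not overlap, while Socs3 with Pim1 and Cish with Socs1 did.

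**Figure D1:**
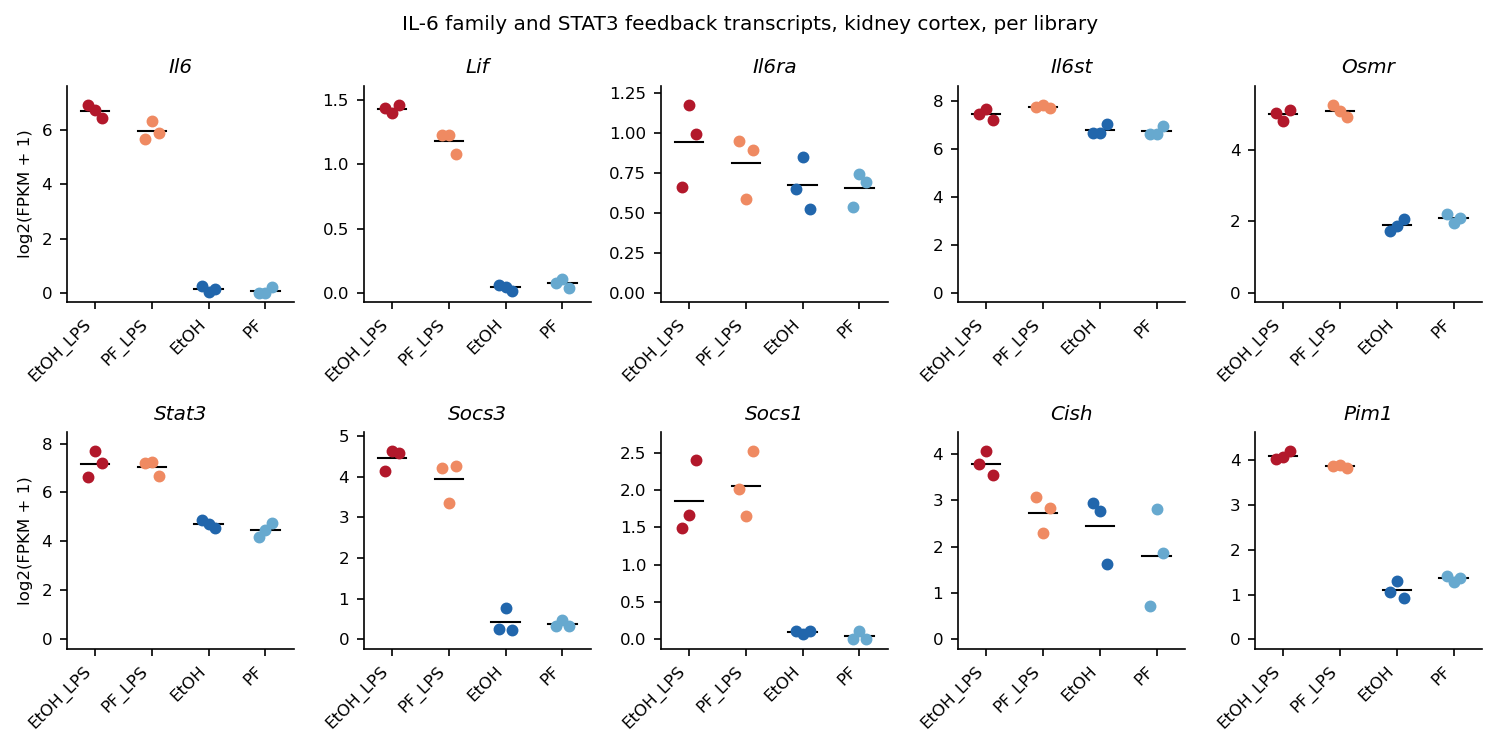
Level of each of the 10 genes in every library, as log2(FPKM + 1) on the vertical axis, with 3 points per group and a line at the group mean. Within each diet, Il6, Lif, Il6st, Osmr, Stat3, Socs3, Socs1 and Pim1 lie higher in all 3 LPS libraries than in all 3 saline libraries. So do 18.8% of all genes tested with ethanol feeding and 18.5% with pair-feeding. Il6, Lif, Socs3 and Socs1 were below 1 FPKM in every saline library and were tested only through LPS libraries. Il6ra overlaps in both diets and Cish in pair-fed mice.

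Markers of cortical nephron segments were present. Summed markers of the proximal tubule were at 1070 to 1960 FPKM and those of podocytes at 48.5 to 85.0 FPKM over all libraries. Markers of T and NK cells, B cells and adrenal tissue were each below 1 FPKM in every library. Neutrophil and inflammatory monocyte markers summed to 166 to 251 FPKM in EtOH_LPS and 177 to 417 in PF_LPS, against 6.16 to 9.06 in EtOH and 7.14 to 9.94 in PF; of their 7 genes, 1 stayed below 1 FPKM everywhere. S100a8 and S100a9 made up most of these sums, at up to 173 and 233 FPKM in PF_LPS library 3, and Ccr2, a monocyte receptor of the same list, was lower after LPS in each diet (log2 fold change -1.37 in ethanol-fed and -1.04 in pair-fed mice; limma adjusted p = 0.000505 and 0.00346). Macrophage and dendritic cell markers summed to 6.96 to 8.60 FPKM in EtOH_LPS and 4.54 to 8.30 in PF_LPS. In EtOH and PF the sums were 9.92 to 13.4 and 8.44 to 12. Of these 5 genes, Cd68 had a higher mean after LPS in pair-fed mice (0.975 against 0.792 FPKM) and a lower one in ethanol-fed mice (0.864 against 1.02). Adgre1 means differed little, at 1.14 against 1.26 in pair-fed and 1.05 against 1.24 in ethanol-fed mice. Endothelial markers summed to 37.5 to 48.4 in EtOH_LPS and 31.4 to 37.4 in PF_LPS, against 89.9 to 110.0 in EtOH and 83.7 to 102 in PF. Cdh5, the endothelial cadherin and 1 of the 5 endothelial markers, went the other way, higher by 1.26 log2 units in ethanol-fed and 1.09 in pair-fed mice (limma adjusted p = 0.00257 and 0.00651). The part of these shifts in the results on the listed genes was not tested. Library totals are not in the table. Depth relative to PF library 1 was read from the steps between low values. It was 0.669 to 0.763 in EtOH_LPS and 0.49 to 0.742 in PF_LPS, against 0.722 to 0.94 in EtOH and 0.986 to 1.197 in PF. The lowest was PF_LPS library 2 and the highest PF library 3. The estimate is rough, since outside PF library 1 the commonest step held 15.6% to 20.8% of low genes. Any scaling between libraries in the normalized table would enter it too. The part of depth in the results was not tested. GC-rich transcripts were low against the group mean in 3 libraries, by 0.398 log2 units per 10% GC in PF_LPS library 2, by 0.317 in EtOH_LPS library 1 and by 0.225 in PF library 1.

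LPS in pair-fed mice raised both ligands. Il6, the founding cytokine of the family, was at 50.04, 80.0 and 58.8 FPKM in PF_LPS kidneys, against 0, 0 and 0.147 FPKM in PF kidneys. Its log2 fold change was 5.91 ± 0.19 (SE; limma adjusted p = 1.57e-09), where fold changes here and below are differences of log2(FPKM + 1) and understate low genes. Lif, leukemia inhibitory factor, was at 1.34, 1.34 and 1.12 FPKM in PF_LPS, against 0.0549, 0.0778 and 0.0275 FPKM in PF (1.104 ± 0.13; limma adjusted p = 9.99e-05). In both genes every LPS library lay above every saline library, as for 18.5% of all genes tested. After LPS the ligands stood far apart in level, with Lif close to 1 FPKM. In ethanol-fed mice the ligands rose as well. Il6 was at 122, 107 and 87.6 FPKM in EtOH_LPS, against 0.189, 0.0256 and 0.0937 in EtOH (log2 fold change 6.59 ± 0.19; limma adjusted p = 7.38e-10). Lif was at 1.71, 1.64 and 1.76 FPKM in EtOH_LPS, against 0.0444, 0.0305 and 0.0117 in EtOH (1.39 ± 0.13; limma adjusted p = 1.48e-05).

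The receptors responded unequally. Osmr, the oncostatin M receptor that pairs with gp130, was at 37.7, 33.6 and 29.4 FPKM in PF_LPS, against 3.61, 2.85 and 3.31 in PF, a ratio of means of 10.3 (log2 fold change 3.02 ± 0.16; limma adjusted p = 8.42e-08). The ratio was 11.4 in ethanol-fed mice, with 32.0, 27.4 and 34.0 FPKM in EtOH_LPS, against 2.31, 2.66 and 3.22 in EtOH (3.11 ± 0.16; limma adjusted p = 7.12e-08). Il6st, which encodes the shared transducer gp130, was at 214, 226 and 206 FPKM in PF_LPS, against 95.4, 97.6 and 122.5 FPKM in PF (1.03 ± 0.19; limma adjusted p = 0.0023). Its groups did not overlap, but its ratio of means was only 2.05. In ethanol-fed mice Il6st was at 174, 201 and 146 FPKM in EtOH_LPS, against 98.7, 100.5 and 130.7 in EtOH (0.66 ± 0.19; limma adjusted p = 0.0314). This call was lost in 7 of the other settings tried, among them all libraries scaled to equal total FPKM, where the value was 0.32 (adjusted p = 0.406). With the same scaling the pair-fed value was 0.54 (adjusted p = 0.124).

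Il6ra, the ligand-binding IL-6 receptor chain, was at 0.928, 0.504 and 0.858 FPKM in PF_LPS, against 0.452, 0.674 and 0.618 FPKM in PF. It was at 0.584, 1.26 and 0.989 FPKM in EtOH_LPS, against 0.568, 0.803 and 0.440 FPKM in EtOH. It reached 1 FPKM in 1 library, so it was not among the 14109 genes tested, which needed 1 FPKM in at least 3 libraries. Its LPS and saline libraries overlapped in both diets, and tested without that filter its log2 fold changes were 0.27 ± 0.17 with ethanol feeding and 0.15 ± 0.17 with pair-feeding (limma adjusted p = 0.526 and 0.708).

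Stat3 encodes the transcription factor downstream of gp130 and is itself a STAT3 target. It was at 148, 151 and 101 FPKM in PF_LPS, against 17.0, 21.3 and 26.2 FPKM in PF, a ratio of 6.20 (log2 fold change 2.57 ± 0.27; limma adjusted p = 3.14e-05). In ethanol-fed mice it was at 99.0, 204 and 145 FPKM in EtOH_LPS, against 28.0, 25.4 and 22.2 in EtOH, a ratio of 5.93 (2.47 ± 0.27; limma adjusted p = 4.72e-05). The EtOH_LPS libraries spread over a wide range, yet the lowest of them exceeded all saline libraries. Stat5a overlaps Stat3 on the opposite strand and reached at most 6.04 FPKM.

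Among the feedback genes, Socs3 had the highest difference of log2(FPKM + 1), a scale that understates genes as low in saline kidneys as Socs1. The product of Socs3 binds gp130 and JAK kinases and limits IL-6 signalling. Socs3 was at 17.7, 9.26 and 18.4 FPKM in PF_LPS, against 0.252, 0.394 and 0.252 FPKM in PF (log2 fold change 3.58 ± 0.26; limma adjusted p = 1.2e-06). It was at 16.8, 23.8 and 23.1 FPKM in EtOH_LPS, against 0.199, 0.704 and 0.178 FPKM in EtOH (4.04 ± 0.26; limma adjusted p = 4.01e-07). Every LPS library exceeded every saline library. Socs1, better known as an inhibitor of interferon signalling, was at 3.02, 2.13 and 4.73 FPKM in PF_LPS and at 0, 0.0785 and 0 in PF (2.02 ± 0.26; limma adjusted p = 0.000148). It was at 1.80, 2.17 and 4.27 FPKM in EtOH_LPS, against 0.0835, 0.0539 and 0.0823 in EtOH (1.75 ± 0.26; limma adjusted p = 0.000493). Pim1, a serine/threonine kinase gene induced by STAT factors, was at 13.8, 13.8 and 13.2 FPKM in PF_LPS, against 1.67, 1.44 and 1.59 in PF (2.51 ± 0.15; limma adjusted p = 1.89e-07). In EtOH_LPS it was at 15.4, 16.0 and 17.5 FPKM, against 1.08, 1.49 and 0.894 in EtOH (3.01 ± 0.15; limma adjusted p = 4.18e-08).

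Cish, a suppressor known chiefly as a STAT5 target, did not pass the test in either diet. It was at 7.35, 3.87 and 6.14 FPKM in PF_LPS, against 0.632, 6.02 and 2.63 FPKM in PF (log2 fold change 0.93 ± 0.48; limma adjusted p = 0.215). The saline libraries of this gene varied by nearly an order of magnitude and overlapped the LPS libraries. In ethanol-fed mice Cish was at 12.7, 15.7 and 10.7 FPKM in EtOH_LPS, against 6.70, 5.84 and 2.104 in EtOH (1.34 ± 0.48; limma adjusted p = 0.0872). These groups did not overlap, as for 18.8% of all genes tested, and the adjusted p was 0.0363 when the fit held only these groups. An antisense gene, Gm17041, overlaps Cish and was at 5.35, 7.78 and 7.67 FPKM in EtOH_LPS, against 3.68, 5.95 and 1.36 in EtOH. The libraries were stranded, but whether the authors counted by strand is not stated in the labels. Reads of Cish and Gm17041 may therefore not have been kept apart.

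**Figure D2:**
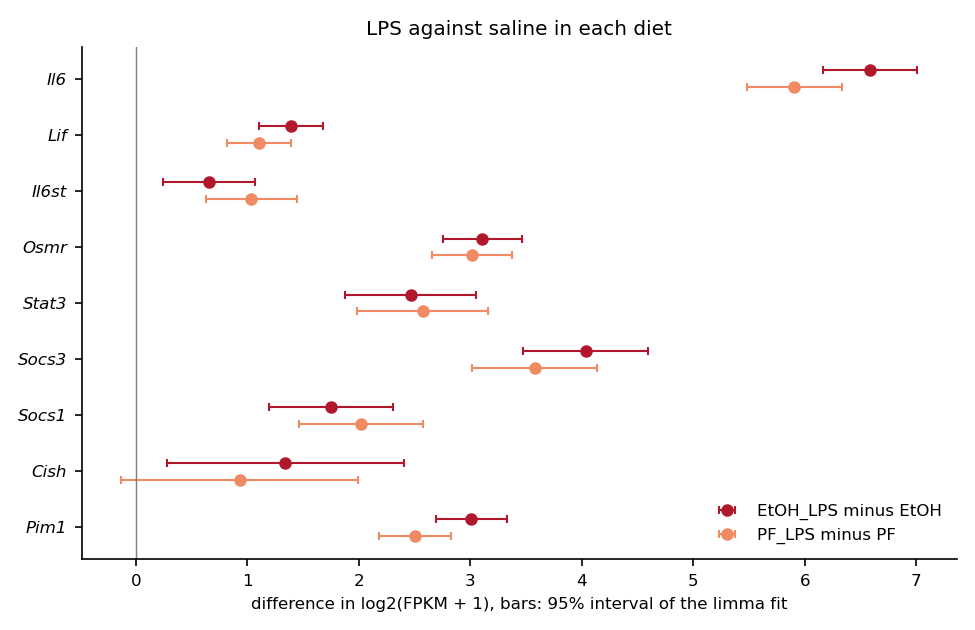
Fold change after LPS in each diet for the 9 listed genes tested, as a difference in log2(FPKM + 1) with the 95% interval of the limma fit, unadjusted for the number of genes. Il6 has the highest values, 6.59 in ethanol-fed and 5.91 in pair-fed mice, and the Cish interval of pair-fed mice spans 0.

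Of the 10 genes 9 were tested, and 8 of the 9 were called higher after LPS in each diet, beside 10.7% of all genes tested with ethanol feeding and 11.3% with pair-feeding. Il6, Lif, Socs3 and Socs1 were below 1 FPKM in every saline library and so entered the test only through their LPS libraries. Without the filter all 10 genes were tested, and 7 were called higher with ethanol feeding and 8 with pair-feeding, beside 3.35% and 3.57% of 36616 genes. The count over the 9 is therefore a description. Libraries of a group differed by GC content, and its part in these results was not tested. PF_LPS library 2, low in GC-rich transcripts, had the lowest values of its group for Socs1 (58.8% GC), Socs3 (58.7%), Cish (56.4%) and Il6ra (52.9%). It had the highest for Pim1 (56.0% GC), Lif (53.0%), Stat3 (52.6%), Il6st (47.4%) and Il6 (35.7%), and the middle one for Osmr (46.0%). These ranks differed in size. Pim1 was at 13.81 FPKM in library 2 against 13.78 in library 1, and Lif at 1.343 against 1.341. Socs3 was at 9.26 FPKM in library 2, against 17.7 and 18.4 in the other PF_LPS libraries, and Il6 at 80.0, against 50.04 and 58.8. Without the 3 libraries low in such transcripts, Socs3 rose by 3.85 log2 units in pair-fed mice (limma adjusted p = 1.55e-06) and Il6 by 5.69 (adjusted p = 9.22e-08).

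The other genes of the pathway were read from lists of 89 genes with the 10 included. These were chosen from textbook knowledge, but with earlier results of these data known, so counts over them are a description. Of the 12 IL-6 family ligands 5 were tested. Of these, Il6, Lif, Ebi3 and Il27 were below 1 FPKM in every saline library and were tested only through their LPS libraries, so their number is no result. Ebi3 and Il27 encode the subunits of IL-27. Ebi3 was at 1.75, 1.74 and 2.90 FPKM in PF_LPS, against 0, 0.04 and 0.03 in PF (log2 fold change 1.59 ± 0.17; limma adjusted p = 3.6e-05). Il27 rose by 0.78 in ethanol-fed mice and by 1.01 in pair-fed mice. Ctf1, cardiotrophin 1, the ligand that reached 1 FPKM in saline kidneys, had fold changes of -0.27 (ethanol-fed) and -0.58 (pair-fed) and did not pass (limma adjusted p = 0.699 and 0.313). Osm, the ligand of Osmr and a product of myeloid cells, was at 0.26, 0.96 and 0.38 FPKM in EtOH_LPS and 0.18, 0.04 and 0.19 in PF_LPS, against at most 0.04 in EtOH and 0.02 in PF, and did not reach the filter. Of the 8 receptors 4 were tested. Lifr, the LIF receptor, was at 35.4, 34.9 and 35.3 FPKM in PF_LPS, against 24.4, 26.2 and 23.6 in PF (0.49 ± 0.15; limma adjusted p = 0.037), and had a fold change of 0.45 in ethanol-fed mice (adjusted p = 0.0591). Il11ra1 did not pass in either diet. Among other ligands and receptors that signal through STAT3, Csf3, the granulocyte colony-stimulating factor, rose by 2.42 log2 units with ethanol feeding and by 1.60 with pair-feeding. Il10ra, a chain of the IL-10 receptor, rose by 0.67 in ethanol-fed mice (limma adjusted p = 0.0355) and had a pair-fed value of 0.36 (adjusted p = 0.233). Csf3 and Il10ra too were below 1 FPKM in every saline library.

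JAK kinases and STAT factors rose in 6 of 10 tested cases in each diet, with 4 that did not pass. Of all genes tested, 10.7% were called higher with ethanol feeding and 11.3% with pair-feeding. Jak3 was below 1 FPKM in every saline library and was tested only through LPS libraries, and 6 of the other 9 rose in each diet. Stat2, a STAT factor of interferon signalling, was at 29.3, 22.4 and 23.4 FPKM in PF_LPS, against 1.20, 2.01 and 1.98 in PF (log2 fold change 3.26 ± 0.19; limma adjusted p = 2.01e-07). Jak2 rose by 1.69 and Jak1 by 0.91 in pair-fed mice, and Stat2, Jak2 and Stat5a rose by 3.15, 1.66 and 1.19 in ethanol-fed mice. Jak3, Tyk2, Stat5b and Stat6 did not pass in either diet. Of 17 feedback genes and phosphatases, ethanol-fed mice had 8 that rose and 1 that fell, and pair-fed mice 6 and 1. Leaving out Socs1 and Socs3, which passed the filter through LPS libraries, 6 and 4 of the other 15 rose, beside 10.7% and 11.3% of all genes. Socs2, another STAT5-induced suppressor, was at 48.6, 72.1 and 56.2 FPKM in PF_LPS, against 4.90, 16.5 and 7.52 in PF (2.63 ± 0.35; limma adjusted p = 0.000253), and rose by 3.23 in ethanol-fed mice. The tyrosine phosphatases Ptpn1 and Ptpn2, which dephosphorylate JAK kinases and STATs, rose by 2.52 and 1.42 with ethanol feeding and by 2.85 and 1.55 with pair-feeding. Pim3, a paralogue of Pim1, rose by 1.28 in ethanol-fed mice. Pias3, a protein inhibitor of STAT3, was the gene that fell in each diet, where 6.39% (ethanol-fed) and 6.89% (pair-fed) of all genes were called lower. It was at 0.96, 0.39 and 0.87 FPKM in PF_LPS, against 2.01, 2.86 and 2.89 in PF (-1.05 ± 0.23; limma adjusted p = 0.00769).

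Known STAT3 targets rose in 20 of 23 tested cases with ethanol feeding and in 21 of 23 with pair-feeding. Of all genes tested, 10.7% and 11.3% were called higher. Of the 23, 9 were below 1 FPKM in every saline library and so were tested only through LPS libraries, Lcn2 and Saa3 among them. Of the other 14, 12 rose in each diet. Many of them are NF-kB targets too. The fibrinogen gene Fgg rose by 6.82 with ethanol feeding and 7.58 with pair-feeding. In the same order, Lcn2, which encodes NGAL, rose by 6.89 and 6.85, the fibrinogen gene Fga by 6.19 and 6.27, and Saa3, serum amyloid A3, by 4.95 and 6.45. Myc (1.66, limma adjusted p = 0.0531) and Vegfa (-0.39, adjusted p = 0.18) did not pass in pair-fed mice, and Lbp, A2m and Vegfa did not in ethanol-fed mice. Genes that act on Il6 transcription or on the decay of its mRNA rose in 5 of 7 cases in each diet. Among the 5 that did not pass the filter through LPS libraries alone, 3 rose. These counts too stand beside 10.7% and 11.3% of all genes. Nfkbiz, an IkB protein needed for Il6 induction, was at 19.3, 20.1 and 16.2 FPKM in PF_LPS, against 1.31, 1.60 and 1.09 in PF (3.07 ± 0.23; limma adjusted p = 1.48e-06), and rose by 3.47 in ethanol-fed mice. Arid5a, which stabilises Il6 mRNA, rose by 3.16 in ethanol-fed and 2.62 in pair-fed kidneys. Zfp36, the AU-rich element binding protein tristetraprolin, and its relative Zfp36l1 rose by 2.64 and 3.51 in ethanol-fed mice and by 1.83 and 3.53 in pair-fed mice. The roquins Rc3h1 and Rc3h2 did not pass, nor did the sheddases Adam10 and Adam17, which release soluble IL-6 receptor.

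**Figure D3:**
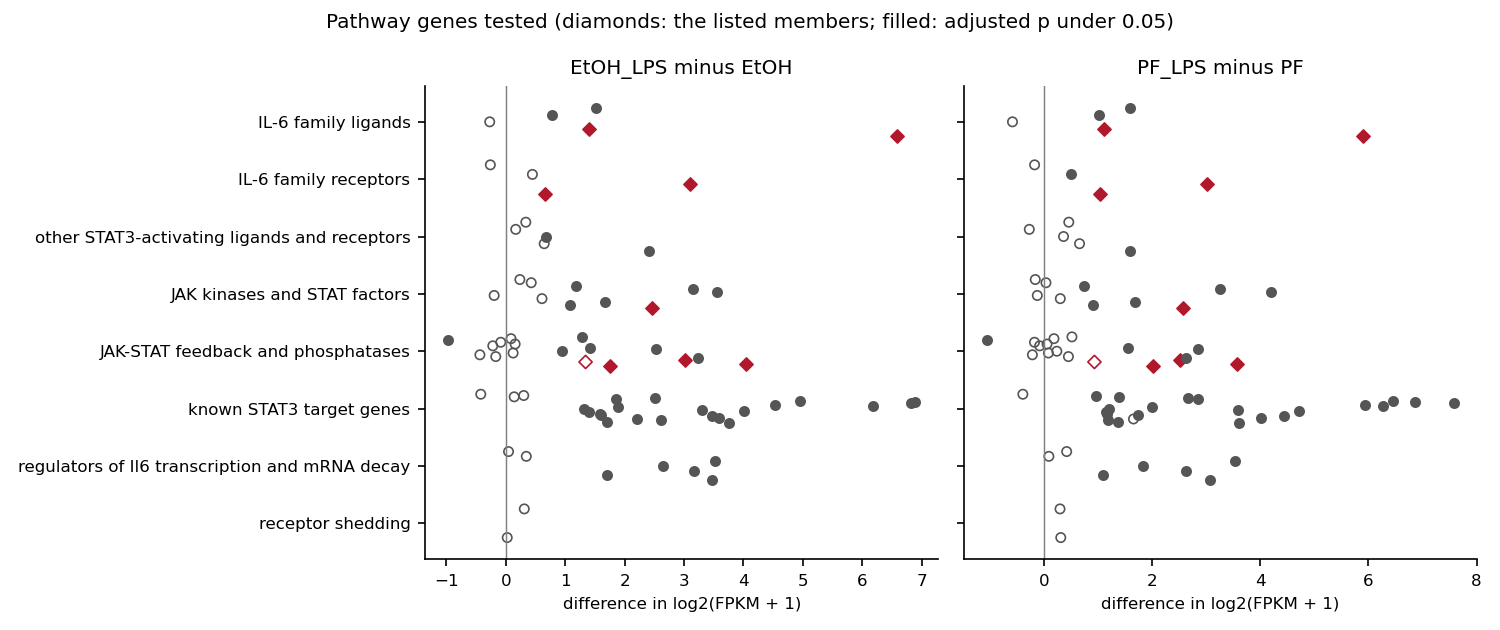
Fold change after LPS of the 73 pathway genes tested, as a difference in log2(FPKM + 1), by list and for each diet; diamonds are the listed members, other points are further pathway genes, and filled symbols passed the test. In the STAT3 target list 20 of 23 points in ethanol-fed mice and 21 of 23 in pair-fed mice are filled and positive. Of all genes tested, 10.7% and 11.3% were called higher. Of the 23 targets, 9 were tested only through LPS libraries. Pias3 is the filled point below 0.

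Ethanol without LPS moved none of the 9 tested genes past the threshold by limma (0 called, and 0 at an unadjusted p under 0.05), in a comparison that called 0.0284% of all genes and had 3.69% at an unadjusted p under 0.05. The fold changes of EtOH against PF lay between -0.26 for Pim1 and 0.66 for Cish, and the groups overlapped in all 9 genes, while 5.63% of all genes lay wholly higher and 6.93% wholly lower. The Il6 difference was 0.07, with a 95% interval of -0.35 to 0.50. Stat3 had the interval -0.35 to 0.82 and Il6st -0.35 to 0.47.

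With LPS, Il6 was higher in ethanol-fed than in pair-fed kidneys in every library, since the lowest EtOH_LPS library (87.6 FPKM) exceeded the highest PF_LPS library (80.0 FPKM). The ratio of means was 1.68 and the log2 difference 0.75 ± 0.19 (95% interval 0.33 to 1.18), which did not pass when adjusted over all genes (limma adjusted p = 0.168, and 0.149 to 0.831 under the other settings). None of the 9 genes was called in this comparison by limma (0 called; Il6 and Cish had an unadjusted p under 0.05), which called 0.0992% of all genes and had 10.8% at an unadjusted p under 0.05. Lif, Cish and Pim1 also had higher values in every EtOH_LPS library than in any PF_LPS library, so that 4 of 9 tested members lay wholly higher, beside 5.34% of all genes. The log2 differences were 0.26 ± 0.13 for Lif, 1.07 ± 0.48 for Cish and 0.24 ± 0.15 for Pim1 (limma adjusted p = 0.508, 0.462 and 0.571). Il6st lay wholly lower in EtOH_LPS, beside 5.59% of all genes (-0.32 ± 0.19; adjusted p = 0.559). Socs3, Socs1, Stat3 and Osmr overlapped between the LPS groups. Without the 3 libraries low in GC-rich transcripts the Il6 difference was 0.82 ± 0.19 and the Cish difference 0.85 ± 0.47 (limma adjusted p = 0.155 and 0.512).

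**Figure D4:**
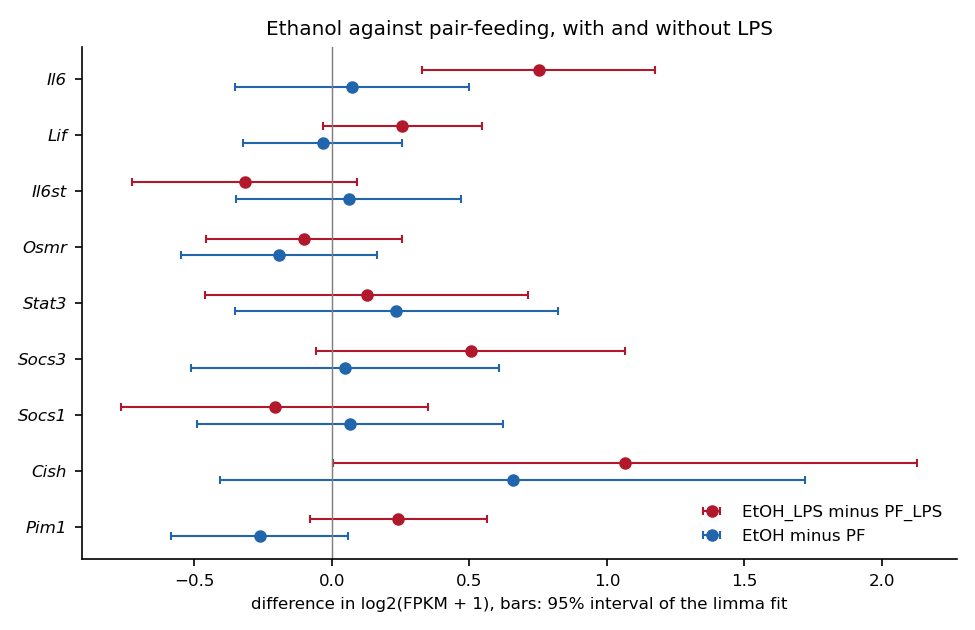
Difference between ethanol-fed and pair-fed kidneys for the 9 listed genes tested, with LPS and without, in log2(FPKM + 1) with the 95% interval of the limma fit, unadjusted for the number of genes. With LPS, Il6 is at 0.75 and Cish at 1.07, each with an interval above 0, which for Cish starts at 0.003. Without LPS all 9 intervals span 0.

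Of the 64 further pathway genes tested, 3 (4.69%) lay wholly higher in EtOH_LPS than in PF_LPS, beside 5.34% of all genes, and 6 (9.38%) wholly lower, beside 5.59%. None was called (0 by limma), and 12 (18.8%) had an unadjusted p under 0.05, beside 10.8% of all genes. The share wholly higher was near that of all genes, and its members are given as values only. Higher were Fos, Vegfa and Zfp36. Zfp36 was at 57.6, 56.3 and 49.0 FPKM in EtOH_LPS, against 33.5, 35.7 and 26.3 in PF_LPS (0.76 ± 0.21; limma adjusted p = 0.181). Among the lower ones were Cebpd, Il1rn, Fgg, Lbp and A2m. Il1rn, the interleukin-1 receptor antagonist, was at 12.8, 17.6 and 20.4 FPKM in EtOH_LPS, against 25.1, 29.8 and 36.5 in PF_LPS (-0.82 ± 0.19; limma adjusted p = 0.127). The genes named for this pattern, and the pathway genes named for not passing a test, were chosen after their values were seen.

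Averaged over both LPS states, ethanol gave an Il6 difference of 0.41 ± 0.14 (limma adjusted p = 0.316) and a Cish difference of 0.86 ± 0.34 (adjusted p = 0.437), and none of the 9 genes was called (0 by limma; Il6 and Cish had an unadjusted p under 0.05), beside 0.319% of all genes called and 9.45% at an unadjusted p under 0.05. Without the 3 libraries low in GC-rich transcripts, Il6 was at 0.43 ± 0.13 and Cish at 0.483 ± 0.315 (limma adjusted p = 0.297 and 0.695). Leaving out PF library 1 alone gave 0.59 for Cish. The interaction, the LPS response in ethanol-fed mice minus that in pair-fed mice, was 0.68 ± 0.27 for Il6 and 0.51 ± 0.21 for Pim1 (limma adjusted p = 0.988 for each). Again 0 of 9 genes were called by limma, and Il6 and Pim1 had an unadjusted p under 0.05, beside 0.0284% of all genes called and 4.37% at an unadjusted p under 0.05. The interaction interval for Socs3 was -0.34 to 1.25 and for Osmr -0.41 to 0.60, which leaves room for a difference between the diets in either direction.

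The genes whose profile over the 12 libraries was most like that of Il6 were named by the smallest root mean square difference of log2(FPKM + 1), each gene centred on its own mean, among 11673 protein-coding genes. They were Ccl2, a monocyte chemokine (0.43 log2 units), Gbp5, a guanylate-binding protein (0.46), Rsad2, the antiviral protein viperin (0.53), Parp14 (0.55) and Fga (0.57). Ccl2 rose by 7.27 in ethanol-fed and 6.56 in pair-fed mice after LPS. For Socs3 the nearest genes were Slfn2 (0.25), the glycolytic regulator Pfkfb3 (0.25), the chemokine Ccl4 (0.26), Akap12 (0.26) and Rhob (0.27). Since these genes were picked for their likeness to Il6 and Socs3, their own LPS responses follow from the choice and are a description.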

How the data were processed

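The authors deposited 1 table of gene FPKM values, named as normalized, for the 12 libraries. Per the labels' protocols, frozen cortex gave total RNA (mirVana) for TruSeq Stranded libraries depleted with Ribo-Zero Gold. Per the submitters' processing notes, which give no roles, the software included TopHat2 2.0.4, FastQC 0.10.1, Cuffnorm, Cuffdiff 2.1.1 and Cufflinks 2.2.1, and the build was mm10. The gene annotation and the strand setting are not stated there. Since FPKM carry no counts, a count model could not be used, and depth is known only as a relative estimate. Symbols came from GENCODE M21, which matched 47219 of 47719 identifiers.

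Values were analysed as log2(FPKM + 1) for 14109 genes (1 FPKM reached by 3 or more libraries). The model had a mean for each group, all 12 libraries, an intensity trend and a robust prior in limma 3.58.1 under R 4.3.3, and was tested on simulated data. Tests were two-sided, p-values were adjusted by Benjamini-Hochberg over all genes tested, and the threshold was 0.05. SE are those of the fit. A permutation test of 3 against 3 libraries cannot reach p below 0.1. The members and lists were chosen with earlier results of these data known, so their direction is no independent evidence. All 10 members are named, with up to 4 called genes of each list per LPS comparison by size of change, and the 5 genes nearest in profile to Il6 and to Socs3. A gene of the lists is counted but its values are not reported here. Alternatives covered the pseudocount, filter, scaling, variance model, samples fitted, replicate block and left-out libraries.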

Additional observations from a re-analysis of the deposited data

How the results depend on the processing

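Of the 9 tested members, the 8 called higher after LPS stayed between 6 and 8 in each diet under every setting that kept all libraries. With 1 library left out they numbered between 7 and 9. Lif and Socs1 were below 5 FPKM in every library, so with a filter of 5 FPKM fewer members were tested. In the comparisons of diets and the interaction 0 were called throughout. Of 362 single-gene values under other settings 352 kept their direction and side of the threshold. The exceptions were Cish, called in ethanol-fed mice when only those groups were fitted, Osmr, whose difference between EtOH_LPS and PF_LPS was 0.151 with equal total FPKM instead of -0.102, and Il6st.

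The LPS call of Il6st in ethanol-fed mice ended with no filter (adjusted p = 0.0812), equal total FPKM (0.406), equal total FPKM of protein-coding genes (0.338), quantile normalization (0.45), only those groups fitted (0.0723), a replicate block (0.0569) and, a choice made after seeing the data, without the 3 libraries low in GC-rich transcripts (0.0627). It also ended without EtOH_LPS library 1 or 2, EtOH library 1 or 2, or PF library 2, with values of 0.546 to 0.786 over the 12 left-out libraries. The cause was not tested. The pair-fed LPS call of Il6st ended with equal total FPKM (0.124). Over all genes, LPS calls as deposited were 1504 higher and 902 lower with ethanol feeding and 1589 and 972 with pair-feeding. They were 968 and 1862, and 841 and 2685, with equal total FPKM, where the median gene shifted to -0.267 and -0.409. They were 1016 and 2371, and 1020 and 2387, with protein-coding totals (median gene -0.295 and -0.291), and 1279 and 971, and 1388 and 1168, with quantile normalization (-0.125 and -0.115). A filter of 5 FPKM, which tests fewer genes, left 1468 and 1623 calls, against 2406 and 2561.

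Between the LPS groups, leaving out 1 library gave Stat3 differences of -0.129 (without EtOH_LPS library 2) to 0.39 and -0.059 without PF_LPS library 3, and Socs1 differences of -0.482 to 0.023 (without PF_LPS library 3), against 0.126 and -0.208 with all libraries. It gave Cish LPS responses of 0.39 to 1.443 in pair-fed mice, lowest without PF library 1, and 0.934 to 1.589 in ethanol-fed mice, where it was called without PF library 1 (adjusted p = 0.0304) or PF library 2 (0.0417). Pair-fed calls over all genes were 1615 without PF library 2 and 1629 without PF library 3, against 2561.

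Calls over all genes in the ethanol comparisons depended on the setting. With LPS, the 14 genes became 1 to 8 under 8 settings (1 with no filter, 2 with a replicate block) and 0 (without EtOH_LPS library 2) to 42 (without PF_LPS library 1). Averaged over LPS states, the 45 genes became 9 with the block, 13 with no filter and 19 to 28 under 3 other settings, and 5 (without EtOH library 3) to 74 (without PF_LPS library 1). Without LPS, the 4 genes became 8 with no filter, 0 with a filter of 5 FPKM, 16 with only those groups fitted, 11 without the 3 libraries, and 1 to 6 with 1 left out. The 4 of the interaction became 7, 0 and, with 1 left out, 2 to 6.

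Replicate numbers are shared by the groups but nothing says that they pair libraries. Deviations of same-numbered libraries correlated at -0.206 to 0.279 over 18 pairs, 5 of them above 0.1, so the block stayed an alternative. With it, 7 members were called after LPS with ethanol feeding and 8 with pair-feeding, and 0 in the other comparisons.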
